A study of Mus musculus with 6 samples.

Results

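The nuclear genes for the subunits of the mitochondrial respiratory chain and ATP synthase were followed in mouse cortex with and without stabilised β-catenin. The set held every protein-coding gene whose symbol starts with Ndufa, Ndufb, Ndufc, Ndufs, Ndufv, Sdha, Sdhb, Sdhc, Sdhd, Uqcr, Cyc1, Cox4i, Cox5, Cox6, Cox7, Cox8 or Atp5. Of 109 such symbols, 7 pseudogenes, 12 assembly factors and 4 genes not annotated as protein-coding were left out. This left 86 of the 47794 genes in the deposited table: 38 of complex I, 4 of complex II, 9 of complex III, 18 of complex IV and 17 of complex V. The rule reads names only.

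RNA had been taken from primary somatosensory cortex of C57BL/6 mice at postnatal day 14, in 2 groups of 3 libraries. Both groups carried an allele of Ctnnb1, the β-catenin gene, with loxP sites around exon 3. Controls carried this allele alone (β-cat lox(ex3)), and the overexpression group carried Nex-Cre as well (β-cat lox(ex3);Nex-Cre). Without exon 3 the protein lacks the residues through which it is tagged for breakdown. Nex-Cre is driven by the Neurod6 locus and acts in excitatory neurons of the forebrain. Interneurons, glia and vessels in the same tissue are outside its main range, so any effect on neurons is diluted in whole cortex. The replicates are numbered, but nothing says that they are separate animals, so every p-value below reflects spread between samples that may be technical.

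Oxidative phosphorylation makes most of the ATP of neurons. Complex I takes electrons from NADH and complex II from succinate, complex III passes them from ubiquinol to cytochrome c, complex IV hands them to oxygen, and complex V uses the resulting proton gradient to make ATP. Complexes I, III, IV and V combine nuclear-encoded subunits with a few made inside the mitochondrion, whereas complex II is wholly nuclear-encoded. Several complex IV subunits exist as a widespread form and a second form known from muscle, lung or testis.

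Each gene had 1 deposited value in each group, called here its mean, which averages over 3 libraries the reads divided by the scaling factor of the library. These values summed to 19016749 in control and 18602579 in overexpression cortex. The 86 genes took 139743 of the control sum, or 0.735%, and 133430 of the overexpression sum, or 0.717%. Of the 86, 85 were above 0 in both groups, 83 had a mean over both groups of at least 10, and 79 had at least 100. The 3 genes below 10 were Cox7b2, Cox8b and Cox8c. The tissue label was checked against cell type markers. All 7 excitatory neuron markers were measured, led by Camk2a at 66769 in control and 63088 in overexpression cortex. All 5 striated muscle markers together summed to between 138 and 189 per control library and between 150 and 171 per overexpression library. In bulk tissue, fewer cells of a type and less RNA per cell cannot be told apart.

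No respiratory chain gene passed a test between the groups. In the authors' deposited table, 0 of 86 genes had an adjusted p under 0.05, where the share over all 30152 tested genes was 0.0%. Without adjustment, 0 of the 86 had a p under 0.05 in the authors' deposited table, against 0.534% of all tested genes. The smallest unadjusted p among them in the authors' deposited table was 0.101, for Cox7a1, and the next was 0.163, for Atp5b. Of the 83 genes whose mean reached 10, 68 had the lower mean in overexpression cortex, where 53.2% of all 17095 such genes did. The other 15 had the higher mean, against 46.8% of all genes. The median log2 ratio of overexpression to control means was -0.044 for the 83 genes and -0.0089 for all genes. The middle of the set was narrow, with quartiles at -0.079 and -0.0075. Differences of 1.1-fold or more were few. Atp5b, Ndufs8, Cox6b2 and Cox7a1 were lower by that much, which is 4 of 83 against 13.8% of all genes, and Cox4i2 alone was higher, against 17.2%. At a 5% difference 25 were lower, against 28.5% of all genes, and 4 higher, against 27.8%. At a 20% difference 1 was lower, against 4.95%, and 0 were higher, against 8.05%. These shares were not matched for level. The median mean was 1007 for the 83 genes and 303 for all genes. At a mean of 1000 to 3000, 186 of all 2965 genes were lower by 1.1-fold or more and 102 higher. Of the 34 respiratory chain genes there, 0 were lower and 0 higher by that much. From 3000 to 20000 the counts were 85 and 27 of 1266, beside 1 and 0 of 8. Cox6b2, Cox7a1 and Cox4i2 had means under 100. How much of these counts follows level was not tested.

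The count of lower means depended on how the groups were scaled against each other. The log2 ratio of the group sums was -0.032. With each group divided by its own sum, 52 of the 83 were lower and 31 were higher, and 41.8% of all genes were lower. Centred on the median of all genes at a mean of at least 100, 56 were lower and 27 were higher, beside 47.0% lower among all genes. The median log2 ratio of the set was -0.012 and -0.026 under these scalings. The medians of complexes I, III and IV stayed below 0 under both, whereas that of complex II became 0.020 and 0.0054 and that of complex V 0.016 and 0.0016. Any gene or list given below with a log2 ratio between -0.032 and 0 is above 0 once the groups are divided by their sums. Genes of high level leaned lower in the table as a whole. Of the 42 respiratory chain genes with a mean of at least 1000, 36 were lower, beside 69.9% of all such genes, and 6 were higher, beside 30.1%. Among all 1266 genes with a mean of 3000 to 20000 the median log2 ratio was -0.045 and 77.2% were lower, while the 8 respiratory chain genes in that range were all lower, with a median of -0.10. Between 1000 and 3000 the 34 respiratory chain genes had a median of -0.030 and all genes -0.029. Between 300 and 1000 the medians were -0.056 for 30 respiratory chain genes and -0.0067 for all genes.

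**Figure D1:**
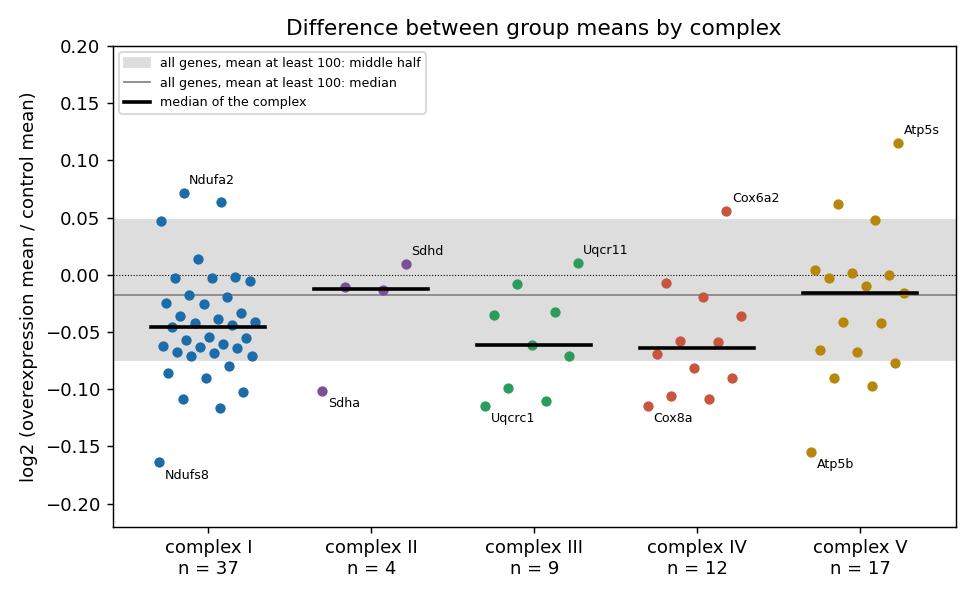
Log2 ratio of overexpression to control means for the 79 genes with a mean of at least 100, by complex. Each point is a gene, the black bar is the median of the complex, and the grey band and line are the quartiles and median of all genes with that mean. Most points lie below 0, between Ndufs8 at -0.16 and Atp5s at 0.12, and every complex median lies within the grey band.

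Complex I, the NADH dehydrogenase, contributed 38 genes, of which 33 had the lower mean in overexpression cortex, with a median log2 ratio of -0.045. Of all genes with a mean of at least 10, 53.2% were lower, which also stands beside the counts by role. Its 7 nuclear core subunits, which carry the flavin and the iron-sulphur clusters, had a median of -0.057, and 6 of the 7 were lower. The 31 accessory subunits had a median of -0.044, and 27 were lower. Among its genes of highest mean were Ndufa4, at 2646 in control and 2520 in overexpression cortex, and Ndufa10, an accessory subunit at 2456 and 2427. Ndufa4 is counted by its name under complex I, although its protein is now known to belong to complex IV. Ndufs8 (ENSMUSG00000059734), a core subunit with 2 iron-sulphur clusters, had the lowest log2 ratio of the complex at -0.16, with means of 819 and 732. Its unadjusted p was 0.197 in the authors' deposited table, above that of Atp5b. The highest ratio with a mean of at least 100 was that of the accessory subunit gene Ndufa2, at 0.072, with means of 293 and 308.

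Complex II, succinate dehydrogenase, which is also an enzyme of the tricarboxylic acid cycle, had a median of -0.012 over its 4 genes, on either side of 0 depending on the scaling. The flavin subunit gene Sdha had means of 5850 in control and 5454 in overexpression cortex, a log2 ratio of -0.10. The other genes lay close to 0. The iron-sulphur subunit gene Sdhb was at 1359 and 1349, and the membrane anchor genes Sdhc and Sdhd were at 1201 and 1190 and at 1030 and 1037.

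Complex III, the cytochrome bc1 complex, had a median of -0.061, with 8 of 9 genes lower, beside 53.2% of all genes. Both core protein genes were lower by mean: Uqcrc1 had 3898 in control and 3600 in overexpression cortex, a log2 ratio of -0.11, and Uqcrc2 had 3219 and 3148. Of the redox subunits, Cyc1, cytochrome c1, was at 1656 and 1588, and Uqcrfs1, the Rieske iron-sulphur protein, at 1288 and 1282. The 5 small subunit genes had a median of -0.071, and Uqcr11 was the only gene of the complex with the higher mean, at a log2 ratio of 0.011.

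Complex IV, cytochrome c oxidase, had a median of -0.069 over the 15 genes with a mean of at least 10. Of these 13 were lower, beside 53.2% of all genes. Its most abundant genes were Cox8a at 5651 in control and 5221 in overexpression cortex, Cox6a1 at 4223 and 3924, and Cox4i1 at 2942 and 2824. Cox8a also had the lowest ratio of the complex above a mean of 100, at -0.11. Cox6a2 had the highest, at 0.056.

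Complex V, ATP synthase, had a median of -0.016 over 17 genes, of which 11 were lower, beside 53.2% of all genes. This median too lay on either side of 0 depending on the scaling. Its roles differed in their values. All 5 genes of the F1 head, where ATP is made, were lower, with a median of -0.068, whereas the 3 genes for the rotating c ring had a median of 0.0015 and 1 was lower. The peripheral stalk had 2 of 4 lower, with a median of -0.018. Atp5b, the catalytic β subunit and the most abundant of the 86 genes, had means of 17187 in control and 15438 in overexpression cortex, a log2 ratio of -0.15 with an unadjusted p of 0.163 in the authors' deposited table. Atp5a1, the α subunit, was at 13945 and 13323, and Atp5f1, subunit b of the stalk, at 4214 and 3939. The highest ratio was that of Atp5s, coupling factor B, at 0.12, with means of 202 and 219. These differences between roles were not tested, and the roles differed in level too. The median level was 2748 for the F1 head, 1748 for the c ring and 1944 for the peripheral stalk. Atp5b, Atp5a1 and Atp5f1 lie in the range of 3000 to 20000, where 77.2% of all genes were lower.

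Promoter sequences are shown for the gene with the lowest log2 ratio among those with a mean of at least 100 in each of complexes I, V, III and IV, as examples of what precedes respiratory chain genes. They come from RefSeq on GRCm38.p6 and run from 250 bases before to 50 bases after the transcription start, 5′ to 3′ on the strand of the gene. Capitals mark matches, on either strand, to 3 motifs of factors known to act on respiratory genes: GCGCA and GCGC with any 1 base between them for NRF1, CCGGAAG for GABPA (also called NRF2) and AAGATGGC for YY1. The coordinates are chr19:3912725-3913024 on the minus strand for Ndufs8, chr10:128083057-128083356 on the plus strand for Atp5b, chr9:108936398-108936697 on the plus strand for Uqcrc1 and chr19:7217567-7217866 on the minus strand for Cox8a.
Ndufs8: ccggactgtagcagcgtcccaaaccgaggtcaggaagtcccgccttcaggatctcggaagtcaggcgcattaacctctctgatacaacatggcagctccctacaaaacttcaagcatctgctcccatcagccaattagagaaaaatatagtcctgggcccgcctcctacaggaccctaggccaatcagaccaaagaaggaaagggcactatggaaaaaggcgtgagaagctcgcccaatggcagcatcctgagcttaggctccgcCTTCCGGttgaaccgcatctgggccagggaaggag
Atp5b: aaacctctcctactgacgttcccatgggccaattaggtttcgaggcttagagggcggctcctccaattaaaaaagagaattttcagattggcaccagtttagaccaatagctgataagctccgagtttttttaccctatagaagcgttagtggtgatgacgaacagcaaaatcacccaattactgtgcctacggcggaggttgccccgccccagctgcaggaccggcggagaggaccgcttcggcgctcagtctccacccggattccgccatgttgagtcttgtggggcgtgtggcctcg
Uqcrc1: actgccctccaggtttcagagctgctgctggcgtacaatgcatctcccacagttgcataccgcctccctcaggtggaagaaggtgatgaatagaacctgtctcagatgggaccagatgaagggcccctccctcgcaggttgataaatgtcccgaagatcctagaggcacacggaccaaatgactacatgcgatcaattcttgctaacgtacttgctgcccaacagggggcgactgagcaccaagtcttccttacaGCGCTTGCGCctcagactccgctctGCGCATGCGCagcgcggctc
Cox8a: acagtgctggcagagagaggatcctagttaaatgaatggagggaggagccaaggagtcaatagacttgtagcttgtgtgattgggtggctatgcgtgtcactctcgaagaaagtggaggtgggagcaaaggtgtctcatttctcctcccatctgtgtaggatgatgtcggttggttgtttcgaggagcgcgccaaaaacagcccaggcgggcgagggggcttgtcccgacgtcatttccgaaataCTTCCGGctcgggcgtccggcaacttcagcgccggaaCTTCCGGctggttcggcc

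Uqcrc1 held 2 matches to the NRF1 motif near its start, Cox8a held 2 to the GABPA motif, Ndufs8 held 1 to the GABPA motif, and Atp5b held 0 of any of the 3. Of the 86 genes, 67 had a promoter in the table, and 34 of these, or 50.7%, held at least 1 of the motifs. By complex these were 17 of 33 in complex I, 3 of 3 in II, 3 of 5 in III, 3 of 13 in IV and 8 of 13 in V. The 67 were not filtered by mean. The share of promoters with at least 1 motif was 15.2% over 27025 genes of the promoter table and 30.2% over the 8953 of them with a mean of at least 100. The NRF1 motif stood in 23.9% of respiratory chain promoters and 10.9% of the promoters of genes at that mean. The GABPA motif stood in 22.4% and 18.2%. The YY1 motif stood in 11.9% and 4.97%, and 7 of the 8 respiratory chain promoters with it were among the 33 of complex I. The GABPA motif ends in the letters AAG with which the YY1 motif begins, so 1 stretch can hold both, and a match describes letters only.

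Levels were compared between genes per kilobase of coding sequence, averaged over both groups. Cox8a, a small subunit of complex IV, stood first with 26261 mean scaled reads per kilobase, followed by Cox6a1 at 12124, Cox6c at 10602, Ndufa4 at 10500 and Atp5b at 10279. Atp5a1 reached 8218, and the γ subunit gene Atp5c1, present once in the F1 head where α and β are each present in several copies, reached 3073. At a mean of at least 100, the median level was 1445 for the 37 of complex I, 2262 for complex II, 2603 for complex III, 5623 for complex IV and 4306 for complex V. Complex IV and V genes were also the higher ones per kilobase of whole transcript, with medians of 2487 and 1768 against 761 for complex I, 1013 for complex II and 1679 for complex III. On that scale Cox8a stayed first and Atp5b came second, at 9884 and 8514. Of all respiratory chain reads in control cortex, complex V took 40.4%, complex I 24.6%, complex IV 17.99%, complex III 10.3% and complex II 6.76%. In overexpression cortex the shares were 40.1%, 24.98%, 17.9%, 10.3% and 6.77%.

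**Figure D2:**
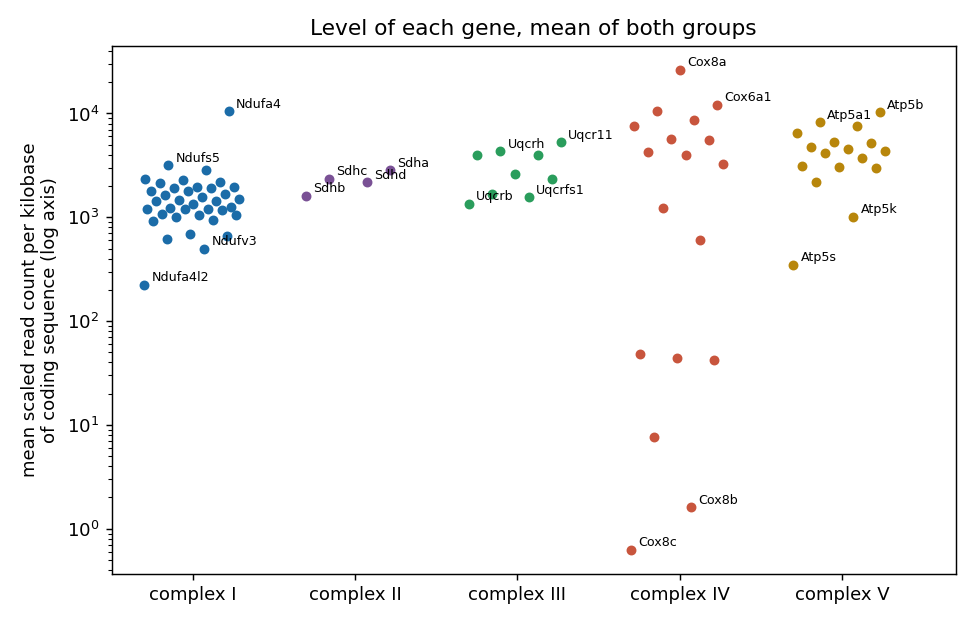
Mean scaled read count per kilobase of coding sequence, averaged over both groups, on a log axis, with 1 point for each of the 86 genes and names for the highest and lowest of each complex. Complex IV spans the widest range, from Cox8a at 26261 down to Cox8b at 1.60 and Cox8c at 0.629.

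The wide range of complex IV came from its second isoforms. Cox4i1, the widespread form of subunit 4, held 99.3% of the reads of its pair, and Cox4i2, a form known from lung, held 0.743%. Cox6b1 held 99.2% and Cox6b2, known from testis, 0.761%, while Cox7b held 99.9% and Cox7b2 0.141%. Cox8a held 99.99% of the reads of its family. Single reads made up the rest: Cox8b had 1 read in control library B and 1 in overexpression library B, and Cox8c had 1 read in overexpression library A. Cox6a2, the form of subunit 6a known from heart and skeletal muscle, was the exception among these, with 4.17% beside 95.8% for Cox6a1. Its 6 library values were 188, 154 and 179 in control A, B and C and 162, 176 and 204 in overexpression A, B and C. All 6 were of one order and the groups overlapped. The muscle actin gene Acta1 was at 114 in control and 112 in overexpression cortex, and the part of muscle RNA in the Cox6a2 value was not tested.

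Within the Cox7a family, Cox7a2l, which helps join complexes III and IV, held 56.8%, Cox7a2 42.7% and the muscle form Cox7a1 0.504%. Cox7a1 (ENSMUSG00000074218) had the lowest ratio of the 83 respiratory chain genes with a mean of at least 10, a log2 ratio of -1.02 between means of 15.7 and 7.74. Control A, B and C had 13.2, 9.72 and 24.3, and overexpression A, B and C had 5.70, 11.3 and 6.21. Control C was the high library, and overexpression B lay above control B, so the groups overlapped. These stand for between 6 and 22 reads per library. Ndufa4l2, a low-oxygen-induced relative of Ndufa4, held 2.22% of their joint reads. The 3 genes that encode the same mature c subunit shared their reads more evenly, with 46.7% for Atp5g1, 22.7% for Atp5g2 and 30.6% for Atp5g3. The Atp5g1 value is uncertain because 19 other annotated genes hold a stretch of at least 100 nucleotides at 95% identity or more. The same applies to Ndufc1 with 25 such genes and Atp5l with 11.

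Values of single libraries were recovered from the group means, since each mean can be made from whole reads of 3 libraries in only 1 way for most genes up to a mean of 1000. The libraries are called A, B and C within each group in order of scaling factor and cannot be tied to replicate numbers. Recovery in both groups succeeded for 42 of the 86 genes, of which 39 had a mean of at least 10 and 35 at least 100. Among the 35 were 26 genes of complex I, 3 of complex III (Uqcr11, Uqcr10 and Uqcrb), 2 of complex IV (Cox5a and Cox6a2) and 4 of complex V (Atp5e, Atp5mpl, Atp5k and Atp5s). Complex II and most abundant genes, such as Atp5b and Cox8a, were thus outside it. For overexpression means of 450 to 1000 only library values within 1.3-fold of the mean were searched, which understates the spread there. limma, fitted to log2 of the library value plus 1, gave 0 of the 39 genes an adjusted p under 0.05, beside 0.0% of 12305 genes. At an unadjusted p under 0.05 the count was again 0 of 39, beside 2.08% of all genes fitted. The median standard error of a difference was 0.12 on the log2 scale, so changes of the size of the median ratio were not detectable.

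Control library B stood apart from the other 2 controls in the respiratory chain genes. Relative to the mean of the 6 libraries, the median log2 value of the 35 genes was 0.124 in control A, -0.207 in control B and 0.139 in control C. In the overexpression libraries it was -0.070 in A, 0.075 in B and -0.069 in C. Over all 6861 genes with library values and a mean of at least 100 the medians lay between -0.011 and 0.016, as the scaling by library makes them. The 35 genes together summed to 21352, 17100 and 21315 in control A, B and C, and to 18473, 20917 and 18570 in overexpression A, B and C. The 5 libraries other than control B thus ordered as 2 controls, overexpression B close below them, and overexpression A and C lower, with control B lowest of all.

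**Figure D3:**
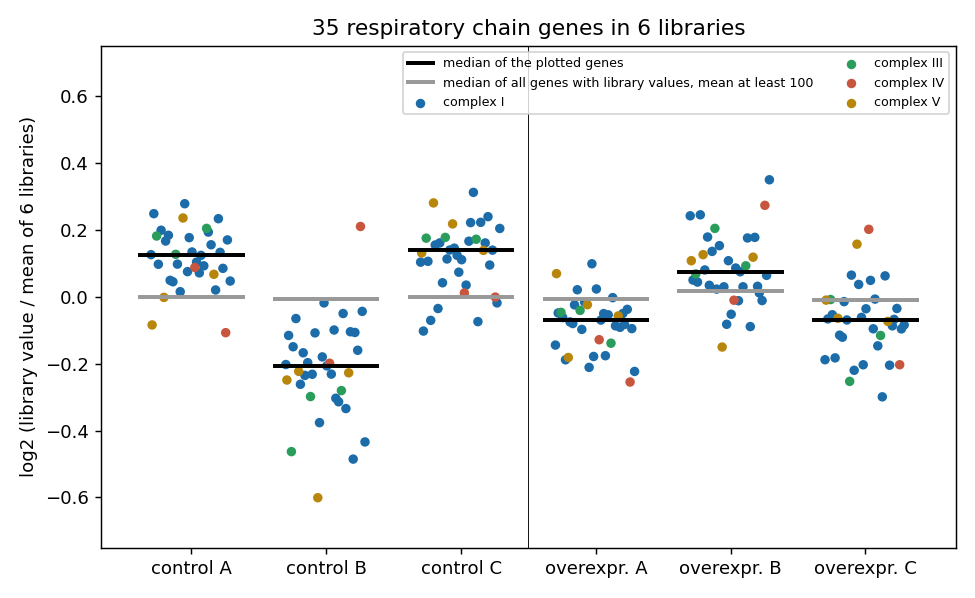
Log2 of each library's value over the mean of the 6 libraries for the 35 respiratory chain genes with library values and a mean of at least 100. Points are genes coloured by complex, black bars their median, and grey bars the median of all 6861 genes with library values. Control B lies at -0.207 while control A and C lie at 0.124 and 0.139, and the grey bars stay near 0.

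Single genes showed the same layout. Control B was the lowest of the 3 controls in 32 of the 35 genes, where 33.5% of all genes had it lowest. It was the lowest of all 6 libraries in 28 of 35, against 15.9%, and under 0.8 of the mean of control A and C in 16 of 35, against 4.69%. The ratio of control B to the mean of control A and C had a median of 0.812 and ran from 0.564 for Atp5k to 1.2 for Cox5a. In 0 of 35 genes were all overexpression libraries below all controls, against 2.86% of all genes, and in 0 of 35 above them, against 3.15%. With shares this small over all genes, a count of 0 among 35 says little about the set. Setting the 3 overexpression libraries against control A and C alone, all 3 were lower in 16 of 35 genes, against 8.16%. Among the overexpression libraries B was the highest in 28 of 35, against 42.2%. These counts were chosen after the library values were seen, and genes of 1 library are not replicates of a condition. Counts across both groups also rest on unequal searches. For group means of 450 to 1000, overexpression values were searched within 1.3-fold of the mean and control values within 2-fold. With library values searched within 2-fold only, 14 respiratory chain genes with a mean of at least 100 remained. How far the search shaped these counts, or the shares of all genes beside them, was not tested.

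Among complex I genes, Ndufb11, an accessory subunit of the membrane arm, had 741, 471 and 676 in control A, B and C and 528, 624 and 627 in overexpression A, B and C. Control B was the lowest of the 6, and all overexpression values fell between it and the other controls. Ndufa3 had 624, 471 and 727 in control and 564, 598 and 529 in overexpression cortex, in the same order. Ndufb10 had 1025, 762 and 1097 in control and 833, 991 and 936 in overexpression cortex, again with control B lowest.

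Ndufa1, a small membrane-arm subunit encoded on the X chromosome, had 307, 187 and 309 in control and 253, 267 and 246 in overexpression cortex. Control B lay at 0.606 of the mean of its 2 companions, and the overexpression values lay between it and the other controls. Ndufs8 had 877, 766 and 816 in control and 685, 836 and 674 in overexpression cortex. Here control B was less far from the others, at 0.905 of their mean, and overexpression B lay inside the control range. Ndufs7, the other core subunit gene with library values, had 830, 701 and 689 in control and 724, 820 and 590 in overexpression cortex, and the lowest control was C. Ndufa2 had 311, 222 and 346 in control and 257, 383 and 284 in overexpression cortex, with the highest of the 6 values in overexpression B.

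The other 19 complex I genes with library values and a mean of at least 100 were Ndufa5, Ndufa6, Ndufa7, Ndufa8, Ndufa12, Ndufa13, Ndufab1, Ndufb2, Ndufb3, Ndufb4, Ndufb5, Ndufb6, Ndufb7, Ndufb8, Ndufc1, Ndufc2, Ndufs4, Ndufs6 and Ndufv3. Over all 26 complex I genes the libraries had median log2 values of 0.125, -0.188 and 0.119 in control A, B and C and -0.072, 0.057 and -0.077 in overexpression A, B and C.

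In complex III, Uqcr10 (ENSMUSG00000059534), a small membrane subunit, had 880, 629 and 860 in control and 693, 814 and 705 in overexpression cortex. Uqcr11 had 1008, 645 and 1004 in control and 860, 932 and 884 in overexpression cortex. Both genes had control B lowest and control A and C above every overexpression library. Uqcrb, whose product is also called the ubiquinone-binding protein, had 489, 364 and 506 in control and 435, 516 and 376 in overexpression cortex. Its overexpression C value was close to that of control B. The 3 small subunit genes together had medians of 0.182, -0.298 and 0.175 in control and -0.047, 0.093 and -0.116 in overexpression cortex.

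In complex V, Atp5k, subunit e of the membrane part, had 255, 143 and 251 in control and 213, 195 and 241 in overexpression cortex, the furthest that control B lay from its companions. Atp5e, the ε subunit of the F1 head, had 671, 576 and 816 in control and 592, 733 and 643 in overexpression cortex. Atp5mpl had 682, 556 and 717 in control and 626, 707 and 619 in overexpression cortex, and Atp5s had 199, 177 and 230 in control and 221, 227 and 209 in overexpression cortex. In all 4 genes control B was the lowest library. Cox5a, a complex IV subunit on the matrix side, was the exception, with 501, 624 and 539 in control and 452, 652 and 469 in overexpression cortex. Library B was the highest of its group in both groups for this gene.

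The direction of the median therefore rested on which control was kept. Over the 35 genes the limma estimates had a median log2 difference of -0.042 with all 6 libraries. It was -0.13 without control B, 0.020 without control A and 0.019 without control C. Leaving out overexpression A, B or C gave -0.018, -0.094 and -0.017. Without control B, limma gave 5 of 39 genes an unadjusted p under 0.05, beside 2.41% of all genes, and all 5 were lower in overexpression cortex, beside 0.926% of all genes. They were Cox7a1, Uqcr10, Ndufa3, Ndufb11 and Ndufb10, with log2 differences of -1.17 ± 0.46, -0.24 ± 0.097, -0.26 ± 0.11, -0.26 ± 0.11 and -0.21 ± 0.094 (standard error). Their unadjusted limma p-values were 0.0278, 0.0305, 0.0342, 0.0364 and 0.0488, and none of the 39 had an adjusted p under 0.05, beside 0.0% of all genes. Without overexpression B, 3 of 39 were lower at an unadjusted p under 0.05, beside 1.91% of all genes. With control B left out and the other libraries centred on their medians, 7 of 39 had an unadjusted p under 0.05, beside 2.45% of all genes. Again without control B, and with library values searched within 2-fold only, 1 of 18 did, beside 2.31%. Control B was singled out after its values were seen, so the values without it are a description.

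The spread between libraries was correspondingly uneven. The coefficient of variation over the 35 genes had a median of 12.7% between controls and 7.26% between overexpression libraries. Over all genes with library values at that mean it was 8.13% and 9.05%. The narrower search for overexpression means of 450 to 1000 lowers the second value of each pair.

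Of the 79 respiratory chain genes whose mean reached 100, 37 had transcripts under 800 nucleotides, and the libraries differed by transcript length in other genes too. Among 165 other protein-coding genes with transcripts under 800 nucleotides the median log2 value was 0.067, -0.134 and 0.073 in control A, B and C and -0.055, 0.114 and -0.071 in overexpression A, B and C. Among 3058 other genes with transcripts of 3000 nucleotides or more it was -0.005, 0.026 and -0.018 in control and 0.005, -0.047 and 0.025 in overexpression cortex. Control B thus lay lowest of the 6 among short transcripts, and beside overexpression C at the top among long ones. The 21 respiratory chain genes under 800 nucleotides had -0.231 in control B, and the 9 from 800 up to 1500 nucleotides had -0.197, where 841 other genes of that length had -0.063. How much of the position of control B follows transcript length was not tested.

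**Figure D4:**
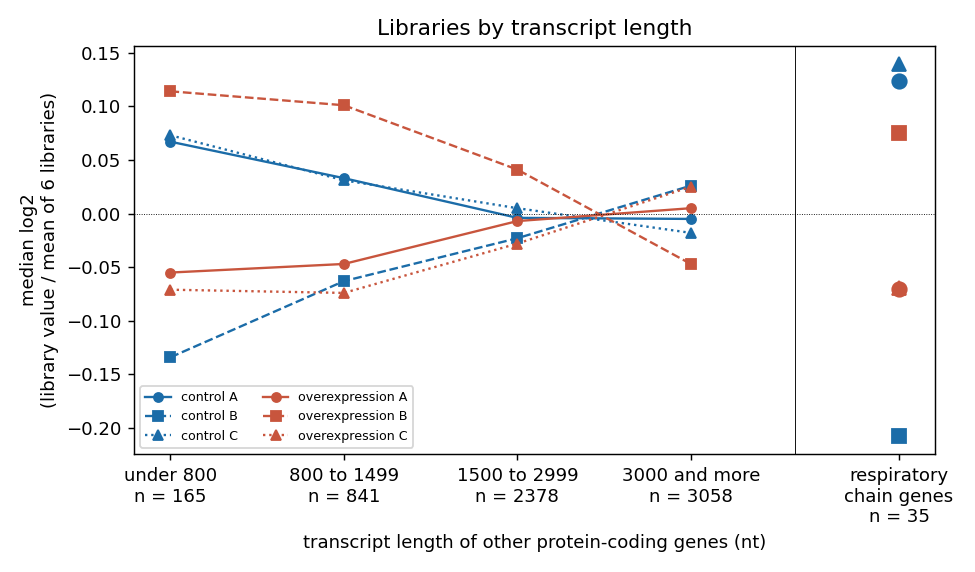
Median log2 of the library value over the mean of the 6 libraries for other protein-coding genes in 4 classes of transcript length, with the 35 respiratory chain genes at the right. Each line is 1 library, blue for control and red for overexpression, and control B falls from 0.026 for the longest transcripts to -0.134 for the shortest and -0.207 for the respiratory chain genes.

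Control B also differed in a marker of another tissue. All 5 choroid plexus markers had library values, and their sum was 190, 838 and 138 in control and 227, 218 and 220 in overexpression cortex. The sum in control B was made up mostly of Ttr, transthyretin, at 76.4, 713 and 79.4 in control and 97.8, 170 and 97.3 in overexpression cortex. Control B lies more than 2-fold from the control mean of 290 for Ttr. These 3 control values therefore came from a search without that limit, made for markers only. The other 4 markers did not all share the order of Ttr. In control A, B and C, Clic6 had 2.04, 27.0 and 15.4 and Aqp1 had 15.3, 19.4 and 12.1, with control B highest in both, whereas Kl had 88.6, 73.4 and 28.7 and Folr1 had 8.15, 5.40 and 2.21. None of the 5 was at 0 in any library. The part of choroid plexus RNA in the respiratory chain values was not tested.

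Genes around the respiratory chain were read from lists of assembly factors, carriers, regulators and fuel pathways. The authors' deposited table gave no gene of these lists with a mean of at least 10 an unadjusted p below 0.05. The share over all tested genes was 0.534%, so a count of 0 in lists of this size says little. Over all genes at that mean, 53.2% were lower and 46.8% were higher. Of the 13 subunit genes encoded in mitochondrial DNA, 12 had a mean of at least 10, and these had a median log2 ratio of -0.016, with 8 lower. The most abundant of them, mt-Co1, subunit 1 of complex IV, had means of 316141 in control and 293037 in overexpression cortex, and mt-Cytb, cytochrome b of complex III, had 120021 and 117120. Of 43 assembly factor genes, 26 were lower, with a median of -0.014, and the most abundant was Ttc19, a complex III factor at 1764 and 1803. In the 33 with library values the median of control B was -0.036, beside -0.207 for the subunit genes.

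Electron carriers and the exchangers of ADP, ATP and phosphate had a median of -0.018 over 19 genes. Slc25a4, an ADP/ATP carrier, was at 9671 in control and 9853 in overexpression cortex, and Vdac1, a channel of the outer membrane, at 7811 and 7624. The 19 regulators of respiratory genes had a median of 0.015, with 13 higher, against 46.8% of all genes with a mean of at least 10. Of the regulators, Ppargc1a, which encodes the coactivator PGC-1α, was at 1249 and 1220. The fuel pathways lay below 0, where genes of high level leaned lower in the table as a whole. The 18 tricarboxylic acid cycle genes had a median of -0.050, with 15 lower, and Ogdh, a subunit of the 2-oxoglutarate dehydrogenase complex, was at 7263 and 6949. The 17 glycolysis genes had a median of -0.066, with 13 lower, and Gapdh was at 34424 and 32273. The median level was 2354 for the tricarboxylic acid cycle genes and 8080 for the glycolysis genes. Of all genes with a mean of 1000 to 3000, 66.6% were lower, and of those at 3000 to 20000, 77.2% were.

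Cell type markers also had unequal group means, where 53.2% of all genes with a mean of at least 10 were lower and 46.8% higher. At that mean only Neurod6 had an unadjusted p under 0.05 among the markers in the authors' deposited table. The share over all tested genes was 0.534%. The 7 excitatory neuron markers, Neurod6 among them, were all lower, with a median log2 ratio of -0.058. Their means were at least 1570. Of all genes with a mean of 1000 to 3000, 66.6% were lower, and of those at 3000 to 20000, 77.2% were. Of the 7 inhibitory neuron markers 6 were lower, with a median of -0.13. Neurod6, whose locus carries Nex-Cre, was at 1942 in control and 1199 in overexpression cortex, for which the authors' deposited table gave p = 5.04e-05 and 0.76 after adjustment. The 6 oligodendrocyte markers were all higher, with a median of 0.10, and Mbp, myelin basic protein, was at 52980 and 57327. Astrocyte and microglia markers each had 3 higher and 3 lower, and 4 of 5 endothelial markers were higher. The markers summed to 145819 in control and 138862 in overexpression cortex for excitatory neurons and to 128119 and 137777 for oligodendrocytes. Red blood cell markers had a median of 0.21, with 4 of 5 higher. The 4 of them with library values summed to 1340, 1336 and 1253 in control A, B and C and to 1334, 1776 and 1189 in overexpression A, B and C, so that overexpression B was the highest of the 6. The part of cell composition in the respiratory chain values was not tested.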

How the data were processed

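RNA-seq values of 6 cortex libraries, 3 control and 3 overexpression, came from 1 deposited table. Per the labels' protocols, 3 µg of Trizol-extracted total RNA entered an Illumina TruSeq library preparation. The submitters' processing notes list TopHat2 2.0.9 and Bowtie2 2.0.6. Not given in the sources used here are build, annotation, read counter, strand setting and test. The authors deposited 1 signal value per gene and group, which its values show to be a mean of scaled read counts. Further columns hold the authors' p-value, its adjusted form and a log2 fold change, per the file headers. Depth per library is known only through the recovered scaling factors, 0.982, 0.926 and 0.907 for control A, B and C, then 1.23, 1.06 and 0.966 for overexpression A, B and C.

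The genes, lists, roles and tests were chosen with earlier results of these data known. Symbols were found for 46488 of 47069 Ensembl IDs. Lengths came from GENCODE vM21 transcripts, taking the longest coding sequence of a gene, and near copies from blastn 2.17.0.

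Each group mean, given to 10 significant digits, was matched to whole reads of 3 libraries, which was decided after seeing the data. Every combination was searched below a mean of 100, library values within 2-fold of the mean up to 1000 in control and 450 in overexpression, and within 1.3-fold from 450 to 1000 in overexpression. Cell type markers with a group mean of 100 to 450 and no single combination were searched again over every combination. This gave 1 combination for Ttr in control, and 2 for the endothelial marker Tek in overexpression, which was not used. The simulated means below do not cover this wider search. Exactly 1 combination was found for 99.41% to 100% of control means and for 99.99%, 96.87% and 89.86% of overexpression means in the 3 ranges. In simulated means 100% of single combinations were right, and 98.99% for overexpression means of 450 to 1000. Above a mean of 100 the simulation took its spread from genes recovered within 2-fold. Genes with a library further from the mean were therefore not simulated, and the share right does not cover them. In overexpression genes with means of 200 to 450, 6.25% had a library more than 1.3-fold from the mean, so the narrow search misses some genes and understates their spread. The 12305 genes with values in all 6 libraries are 72.0% of those with a mean of at least 10. limma 3.58.1 in R 4.3.3 with a mean-variance trend was fitted to log2(value + 1), which understates changes of low genes, with Benjamini-Hochberg adjustment. On simulated data of 12305 genes it called 49.5% of 1.5-fold and 85.1% of 2-fold changes, with 8 false calls among the unchanged genes. The simulation gave every gene the same dispersion and no shift shared by the genes of a library. These rates may therefore not hold for the real libraries.

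The text names the 3 genes of highest mean and the extreme ratios of each complex, isoform genes, genes with library values and the 2 genes of highest mean in each list. Some of these are not reported here. Others, such as Clic6, Aqp1, Folr1, Uqcrfs1 or Atp5c1, were picked once their values were known. Alternatives were other filters, scalings, pseudocounts, memberships, fold limits, recovery windows and each library left out. Coordinates of the genes are not given because the build of the table is not stated.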

Additional observations from a re-analysis of the deposited data

How the results depend on the processing

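No paired analysis was possible because the deposited columns are group means and the recovered libraries carry no replicate numbers. The medians of all 83 genes and of each complex kept their direction under the filters, pseudocounts, summaries and memberships tried. Those of complexes II and V changed sign under both other scalings. The counts of genes with an adjusted p under 0.05 stayed at 0 throughout. With a minimum mean of 1000, 36 genes were lower and 6 higher. Divided by the group sums 31 were higher, and centred on the median of all genes 27 were higher. With the fold limit set at a 5% difference 25 of 83 genes were lower and 4 higher, and with a 20% difference 1 was lower and 0 higher, beside the shares over all genes given above. The median of the 35 limma estimates ran from -0.13 to 0.020 with 1 library left out, and was -0.14 without control B after centring the libraries, which was added after seeing the data. For the other values the cause was not tested. No gene with a mean over 1000 had library values in both groups, so the spread of the most abundant subunits between libraries was not seen directly. A median was taken to have moved when it shifted by more than 0.083 on the log2 scale, the SD of the genes' median between overexpression libraries. This SD comes from the 35 genes with library values and was smaller than that between controls. The limit is larger than the median of the set or of any complex, so a median can change sign without counting as moved.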
